A study of Mus musculus with 18 samples.

Results

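The genes described here are 10 core components of the basement membrane and its anchorage in mouse embryonic stem (ES) cells cultured in 3D: the laminin α chains Lama1 and Lama5, the laminin β and γ chains Lamb1 and Lamc1, the collagen IV chains Col4a1 and Col4a2, the nidogens Nid1 and Nid2, perlecan (Hspg2) and dystroglycan (Dag1). They were chosen by symbol, and all 10 were found among the 49671 gene identifiers of the count table and passed the filter on low counts. Poly(A) RNA was sequenced from 6 groups of 3 samples. Wild-type E14 cells, a mouse ES cell line, were kept in 2i with Lif, embedded in growth factor-reduced Matrigel and cultured for 48 h in N2B27 medium with 1 of 4 additions. These were DMSO (the vehicle), CH (the GSK3 inhibitor CHIR99021 at 3 µM), 2i (CHIR99021 at 3 µM with the MEK inhibitor PD0325901 at 0.4 µM), or Fgf2 at 12 ng/ml with Activin A at 20 ng/ml. In the other groups, ES cells of 1 line with floxed Esrrb alleles and a tamoxifen-inducible Cre were either left untreated (Esrrb fl/fl) or given 4-hydroxytamoxifen (4OHT) for 1 day before 3D culture (Esrrb Δ/Δ), and both were then cultured for 24 h in CH at 3 µM. None of the samples combines 4OHT with unfloxed Esrrb, so 4OHT exposure and deletion cannot be told apart. DMSO and Fgf2/Activin served as conditions in which cells leave naive pluripotency and can form a polarised epithelium, and CH and 2i as conditions that hold the naive state. The comparisons ask how expression of the basement membrane genes differed between these conditions, and with and without Esrrb deletion.

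A basement membrane is a thin sheet of secreted protein on which epithelial cells stand. Laminins, each made of an α, a β and a γ chain, assemble into a network at the cell surface, where integrins and dystroglycan hold them, and collagen IV forms a cross-linked network that nidogens and perlecan connect to the laminin. In the peri-implantation embryo the basement membrane between epiblast and endoderm gives the epiblast its cue to polarise. Matrigel is itself an extract of basement membrane proteins, so every group was surrounded by exogenous laminin and collagen IV, whose protein is not seen by RNA sequencing.

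Per sample, total counts lay between 25388139 and 37158661 in the wild-type samples and between 19915222 and 20140699 in the Esrrb samples. Replicate 1 stood apart from replicates 2 and 3 in every group. Deviations from the group mean correlated between -0.799 and -0.426 for replicate 1 against the others, and between 0.323 and 0.735 for replicate 2 against 3. Values without replicate 1 are therefore given where they change a call. All 8 pluripotency markers examined were detected in every sample, with summed levels from 2088 to 3551 CPM (counts scaled to library size). Single markers differed in both directions under these sums. Sox2 was at a mean of 84.6 CPM with DMSO and 341 CPM with CH, and Utf1 at 685 and 243 CPM. The sums were 3314 to 3551 CPM in Esrrb fl/fl and 2088 to 2224 CPM in Esrrb Δ/Δ, where mean Sox2 went from 295 to 55.6 CPM. Esrrb stood at 142, 110 and 109 CPM in the Esrrb fl/fl samples and at 58.9, 63.8 and 59.8 CPM in the Esrrb Δ/Δ samples, a log2 fold change of -0.99 ± 0.10 (SE).

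Promoter sequence from the RefSeq GRCm38.p6 table was matched for 7 of the genes, Lama5, Lamb1, Col4a1, Col4a2, Nid1, Hspg2 and Dag1, in 8 windows of 250 bases before to 50 after an annotated start. The sequence upstream of Lama5 and that upstream of Nid1 are shown because these genes had opposite directions between 2i and Fgf2/Activin, and the bases shared by Col4a1 and Col4a2 because these genes had the same direction in every comparison. Capitals mark the GC box, GGGCGG or its reverse complement.
Lama5, chr2:180225860-180226109 (-): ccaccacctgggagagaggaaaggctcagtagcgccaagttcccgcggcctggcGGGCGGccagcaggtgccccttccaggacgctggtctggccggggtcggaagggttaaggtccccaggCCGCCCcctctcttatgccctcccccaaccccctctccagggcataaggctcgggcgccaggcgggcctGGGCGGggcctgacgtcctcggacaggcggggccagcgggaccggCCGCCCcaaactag
Nid1, chr13:13437352-13437550 (+): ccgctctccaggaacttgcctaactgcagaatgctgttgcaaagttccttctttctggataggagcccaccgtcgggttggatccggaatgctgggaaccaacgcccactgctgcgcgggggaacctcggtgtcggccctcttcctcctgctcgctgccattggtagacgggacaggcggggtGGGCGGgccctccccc
Col4a1 and Col4a2 shared start, chr8:11312805-11312826 (+): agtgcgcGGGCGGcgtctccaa
Lama5 had 4 GC boxes in its 250 upstream bases and Nid1 had 1 in 199. Over the full windows, Hspg2 had 5, Dag1 3 and 4, Col4a2 3, Lamb1 2 and Col4a1 1. Col4a1, with 1 like Nid1, had the direction of Lama5 between 2i and Fgf2/Activin. A relation of GC box number to direction was not tested. The GC box was present in all 8 windows, against 35.7% of 32851 promoter windows genome-wide. The windows are not all separate. Those of Dag1 overlap each other, and the only GC box of the Col4a1 window lies in the bases shared with Col4a2. The Esrrb motif TCAAGGTCA was found in 0 of the 8 windows and in 0.423% of all windows, and the TCF/LEF core CTTTGA in 0 of 8 and 16.0% of all, both strands searched. With neither of the other motifs present, overlap with the GC box could not arise. At these genome-wide shares, absence from 8 windows says little, and no window was matched for Lama1, Lamc1 or Nid2.

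A gene was called if edgeR's quasi-likelihood test gave a Benjamini-Hochberg adjusted p under 0.01 and its log2 fold change exceeded 1 in size. Between CH and DMSO, 5 of the 10 genes were called: 3 higher (Lama1, Lamc1, Nid1) and 2 lower (Col4a1, Col4a2) in CH, where 17.7% of all 16413 genes tested were called, 7.51% higher and 10.2% lower. Between 2i and CH, 2 of 10 were called (Nid1 higher, Col4a2 lower in 2i), against 1.99% of all genes, 0.317% higher and 1.67% lower. Between Fgf2/Activin and DMSO, edgeR called 0 of 10, against 1.25% of all genes, and DESeq2 also called 0 of 10. An unadjusted p under 0.05 in edgeR was found for 4 of the 10 there, and for 2770 of the 16413 genes tested. Between the groups furthest apart in signalling, 2i and Fgf2/Activin, 7 of 10 were called, 3 higher (Lama1, Lamc1, Nid1) and 4 lower (Lama5, Lamb1, Col4a1, Col4a2) in 2i, against 23.5% of all genes, 9.13% higher and 14.4% lower. Between Esrrb Δ/Δ and Esrrb fl/fl, 3 of 10 were called, Col4a1 and Col4a2 higher and Nid1 lower after deletion, against 16.7% of the 14893 genes tested, 12.8% higher and 3.87% lower. By the adjusted p alone 8 of 10 passed in the Esrrb comparison, 6 higher and 2 lower, where 44.5% of all genes did, 24.6% higher and 19.9% lower. Without replicate 1 in every group the members called numbered 6, 4, 1, 6 and 2 in the order of these comparisons, against 23.1%, 4.67%, 3.04%, 27.6% and 17.2% of all genes in the same fits. The wild-type comparisons share groups with one another, so their values for a gene are given side by side. In bulk samples such as these, fewer cells of a type and less RNA per cell cannot be told apart.

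**Figure D1:**
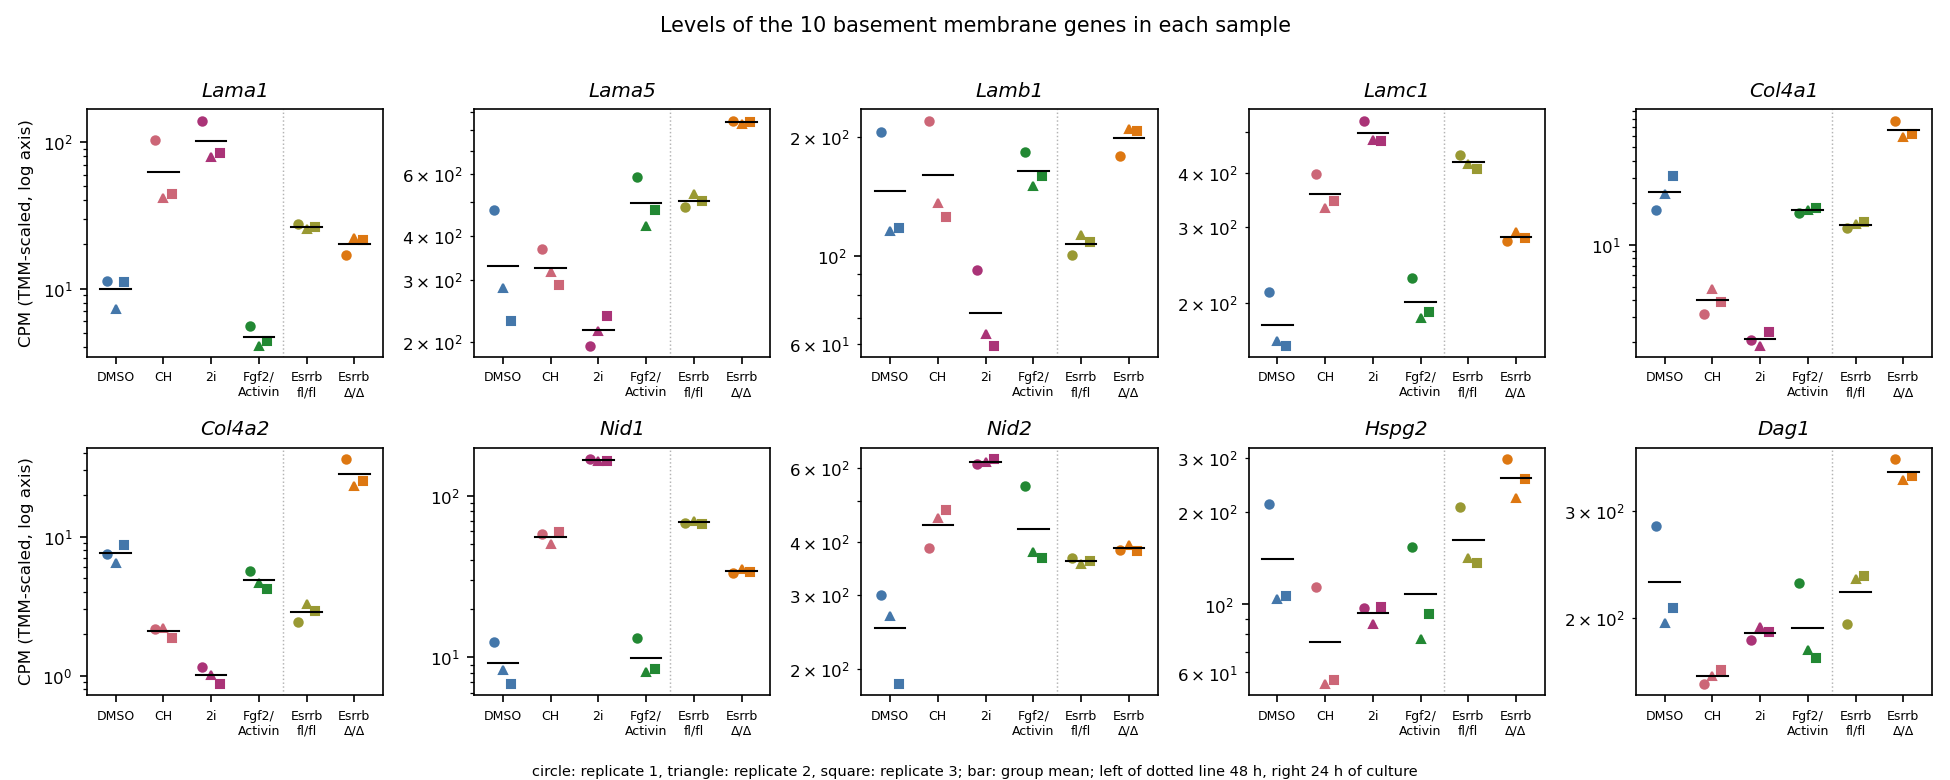
Level of each of the 10 genes in every sample, in CPM on a log axis, for the 6 groups along the horizontal axis, with circles, triangles and squares for replicates 1, 2 and 3 and a bar at the group mean. Among the wild-type groups, Lama1 and Nid1 were lower with DMSO and Fgf2/Activin than with CH and 2i in every sample, and Col4a1 and Col4a2 were higher.

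**Figure D2:**
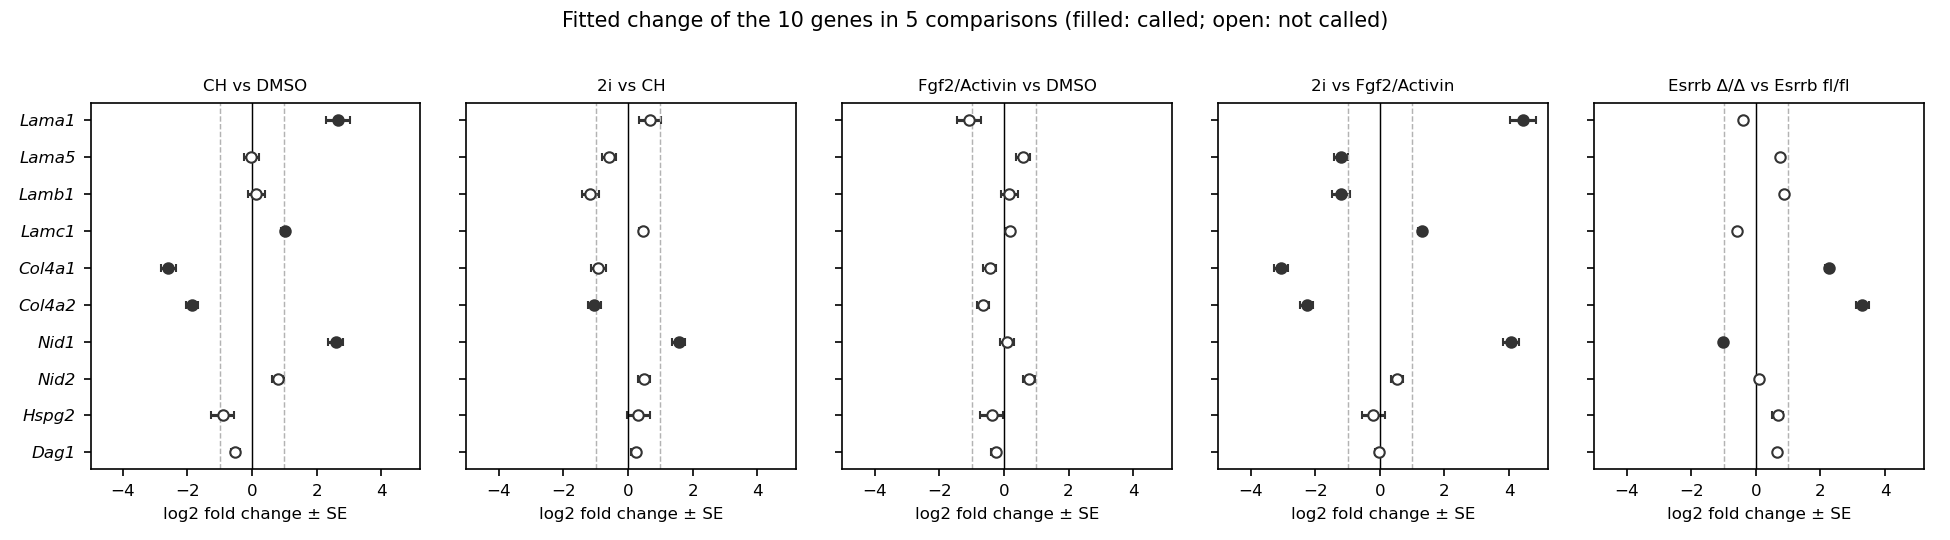
Fitted log2 fold change of each gene (horizontal axis, with SE bars) in the 5 comparisons, with filled points for called genes, open points for the others and dashed lines at 1 and -1. Points for Col4a1 and Col4a2 lie left of 0 in CH against DMSO (-2.59 and -1.86) and right of 0 in Esrrb Δ/Δ against Esrrb fl/fl (2.25 and 3.29).

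Lama1 encodes the laminin α1 chain, the main α chain of the earliest embryonic basement membranes (chr17:67697259-67822647, + strand, GRCm38, as are all positions given for genes). It stood at 11.3, 7.20 and 11.1 CPM in replicates 1, 2 and 3 with DMSO, at 103, 41.4 and 44.1 CPM with CH, at 140, 79.4 and 83.9 CPM with 2i, and at 5.53, 4.07 and 4.35 CPM with Fgf2/Activin. The lowest CH sample was above the highest DMSO sample, the CH and 2i samples overlapped, and replicate 1 was the highest sample in each of the 4 groups. Lama1 was 6.36-fold higher in CH than in DMSO by group means (log2 fold change 2.67 ± 0.37 SE, edgeR adjusted p = 0.000191). It was 21.8-fold higher in 2i than in Fgf2/Activin (4.44 ± 0.41, edgeR adjusted p = 5.68e-06). The difference between 2i and CH was 0.69 ± 0.34 on the log2 scale and was not called. Fgf2/Activin was lower than DMSO by group means with no overlap (-1.08 ± 0.38), a difference that was not called without pairing (edgeR adjusted p = 0.16) but was called when samples were paired by replicate number (-1.08, edgeR adjusted p = 0.00621) and without replicate 1 in every group (-1.10, edgeR adjusted p = 0.000275). In the Esrrb groups, Lama1 was at 27.4, 25.7 and 26.2 CPM before and at 16.9, 22.3 and 21.3 CPM after deletion, not overlapping and differing by -0.39 ± 0.11 on the log2 scale (edgeR adjusted p = 0.0139).

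Lama5 encodes the laminin α5 chain, which is widespread in epithelial basement membranes (chr2:180176373-180225859, - strand). With DMSO it was at 475, 285 and 229 CPM, with CH at 367, 317 and 290 CPM, with 2i at 195, 215 and 237 CPM and with Fgf2/Activin at 590, 426 and 474 CPM. The DMSO samples spread over the range of the CH samples, so these groups overlapped fully (-0.02 ± 0.23). The 2i samples lay below all Fgf2/Activin samples, and Lama5 fell between them by 1.20 on the log2 scale (SE 0.23, edgeR adjusted p = 0.00114). Without replicate 1 in every group this difference was -0.99 and was no longer past the fold threshold. After Esrrb deletion Lama5 was 852, 835 and 843 CPM against 483, 526 and 502 CPM before, 1.67-fold by group means (0.74 ± 0.05, edgeR adjusted p = 6.65e-06, under the fold threshold). These were the highest Lama5 levels of the 18 samples. However, the Esrrb samples were of another line, at passage 25 rather than 20, and were cultured for 24 h rather than 48 h. They were also scaled apart from the wild-type samples, so those levels are not compared by test.

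The balance of the α chains was taken as the ratio of RPKM (CPM divided by the kilobases of exon), so that levels are comparable between genes of different length. Lama1 stood at 0.0383 ± 0.0164 (SD, n = 3) of the Lama5 level with DMSO, 0.221 ± 0.0956 with CH, 0.565 ± 0.243 with 2i and 0.0110 ± 0.000230 with Fgf2/Activin. Every CH and 2i sample, from 0.154 to 0.845, was above every DMSO and Fgf2/Activin sample, the highest of which was 0.0572. Of the RPKM summed over all 5 α chain genes, Lama1 made up 3.56% with DMSO, 17.5% with CH, 34.8% with 2i and 1.06% with Fgf2/Activin. Lama5 made up most of the rest, from 64.2% with 2i to 96.1% with Fgf2/Activin. In the Esrrb samples the Lama1 share was 5.43% before and 2.65% after deletion, and the ratio to Lama5 was 0.0619 ± 0.00471 and 0.0282 ± 0.00429. Lama5 was the more abundant α chain transcript per length in all 18 samples.

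**Figure D3:**
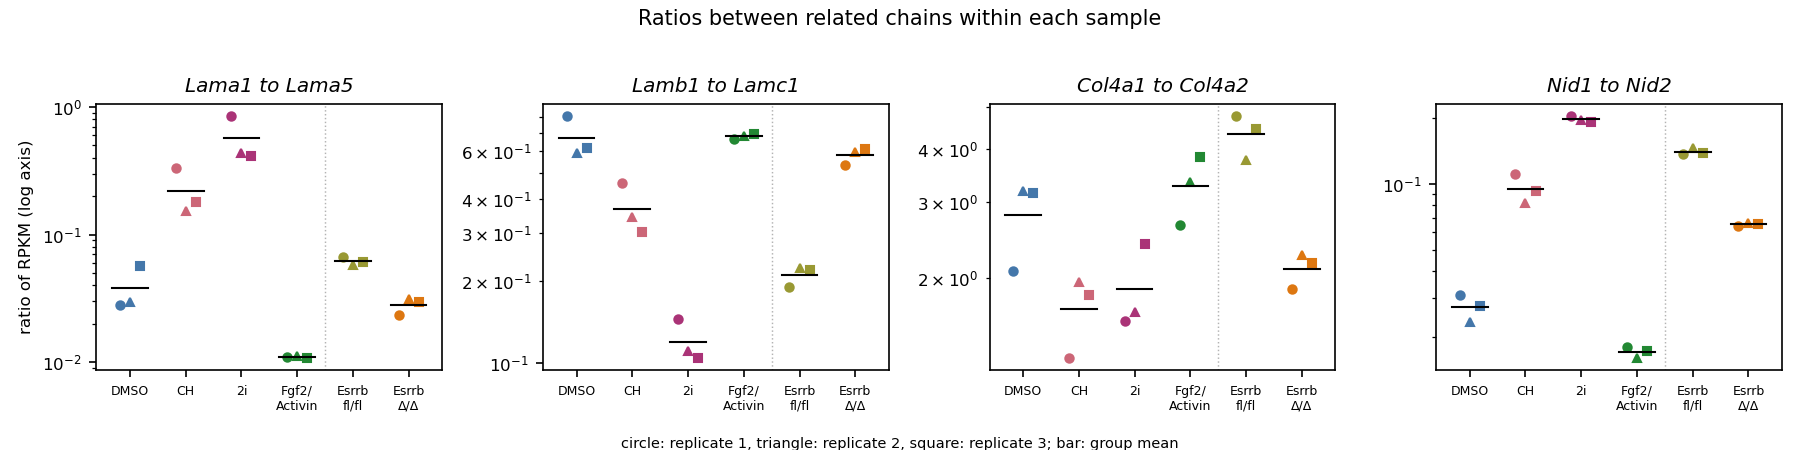
Ratio of RPKM between related chains in each sample, on log axes, for the 6 groups, with symbols for replicates 1 to 3 and a bar at the group mean. Lama1 to Lama5 ran from 0.0108 to 0.845 over the samples, and Lamb1 to Lamc1 was at most 0.145 in the 3 samples with 2i.

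Lamb1 and Lamc1 encode the β1 and γ1 chains, partners of both α chains in the same laminins (chr12:31265234-31329644, + strand, and chr1:153218922-153332786, - strand). Lamc1 was at 212, 164 and 159 CPM with DMSO, 398, 332 and 346 CPM with CH, 530, 479 and 476 CPM with 2i and 228, 185 and 191 CPM with Fgf2/Activin. CH and 2i samples were all above the DMSO and Fgf2/Activin samples, and 2i was above CH without overlap. Lamc1 was 2.01-fold higher in CH than in DMSO (1.01 ± 0.12, edgeR adjusted p = 7.59e-05), so close to the fold threshold that leaving out CH replicate 1, DMSO replicate 2 or DMSO replicate 3, or asking for 10 counts in every sample, took it to between 0.92 and 0.998. It was 2.46-fold higher in 2i than in Fgf2/Activin (1.30 ± 0.12, edgeR adjusted p = 7.88e-06). After Esrrb deletion it was at 279, 292 and 284 CPM against 442, 420 and 410 CPM before (-0.57 ± 0.05, edgeR adjusted p = 1.96e-05, under the fold threshold).

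Lamb1 had another order. It was at 206, 116 and 118 CPM with DMSO, 220, 137 and 125 CPM with CH, 183, 151 and 160 CPM with Fgf2/Activin, and 92.2, 63.5 and 59.5 CPM with 2i. The first 3 groups overlapped one another, and all 2i samples were below them. Lamb1 fell by 1.20 between Fgf2/Activin and 2i (SE 0.27, edgeR adjusted p = 0.00345), a call lost when 2i replicate 2, 2i replicate 3 or Fgf2/Activin replicate 1 was left out, with values between -1.11 and -1.07. Against CH the difference in 2i was -1.16 ± 0.27 and was not called (edgeR adjusted p = 0.0253), but it was called when samples were paired by replicate number (-1.15, edgeR adjusted p = 7.58e-05), by DESeq2, without a filter on low counts and without replicate 1 in every group (-1.09). After Esrrb deletion Lamb1 was at 179, 209 and 207 CPM against 101, 113 and 109 CPM before (0.89 ± 0.07, edgeR adjusted p = 2.21e-05, under the fold threshold). Per length, Lamb1 stood at 0.672 of Lamc1 with DMSO and 0.682 with Fgf2/Activin, but at 0.369 with CH and 0.120 with 2i. It stood at 0.212 before and 0.581 after Esrrb deletion, with no overlap.

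Col4a1 and Col4a2 encode the α1 and α2 chains of the collagen IV trimer present in nearly all basement membranes, and they lie head to head (chr8:11198423-11312826, - strand, and chr8:11312805-11449287, + strand), sharing the bases shown above. Of their exon bases, 0.295% of Col4a1 and 0.982% of Col4a2 overlap another gene, and the counting did not use strand. Col4a1 was at 17.6, 23.1 and 31.1 CPM with DMSO, 3.20, 4.84 and 3.88 CPM with CH, 2.05, 1.89 and 2.37 CPM with 2i, and 16.9, 17.6 and 18.2 CPM with Fgf2/Activin. The highest sample with CH or 2i was at 4.84 CPM and the lowest with DMSO or Fgf2/Activin at 16.9 CPM. Col4a1 was 6.02-fold lower in CH than in DMSO by group means (-2.59 ± 0.22, edgeR adjusted p = 5.59e-06) and 8.34-fold lower in 2i than in Fgf2/Activin (-3.06 ± 0.23, edgeR adjusted p = 1.2e-06). The 2i samples lay below the CH samples, a difference that was not called (-0.92 ± 0.22, edgeR adjusted p = 0.0302) but was called without replicate 1 in every group (-1.04, edgeR adjusted p = 0.0017).

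Col4a2 followed the same order at lower levels, 7.53, 6.45 and 8.72 CPM with DMSO, 2.18, 2.19 and 1.88 CPM with CH, 1.15, 1.00 and 0.875 CPM with 2i, and 5.65, 4.67 and 4.21 CPM with Fgf2/Activin. Its 4 wild-type groups did not overlap. Col4a2 was 3.63-fold lower in CH than in DMSO (-1.86 ± 0.19, edgeR adjusted p = 2.08e-05) and 4.80-fold lower in 2i than in Fgf2/Activin (-2.26 ± 0.20, edgeR adjusted p = 4.05e-06). The fall from CH to 2i, by 1.05 (SE 0.20, edgeR adjusted p = 0.00937), was called only narrowly, and leaving out any 1 of the 6 samples of these groups ended the call. Over the 12 wild-type samples the log2 CPM of Col4a1 and Col4a2 had a Pearson r of 0.968, a description of points that share 4 conditions.

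After Esrrb deletion, with both groups in CH, both collagen IV chains rose. Col4a1 was at 77.2, 59.3 and 61.6 CPM in Esrrb Δ/Δ against 13.1, 13.9 and 14.5 CPM in Esrrb fl/fl, 4.77-fold by group means (2.25 ± 0.11, edgeR adjusted p = 2.56e-06). Col4a2 was at 36.4, 23.3 and 25.1 CPM against 2.44, 3.28 and 2.90 CPM, 9.83-fold (3.29 ± 0.21, edgeR adjusted p = 6.77e-06). In both genes replicate 1 was the highest deleted sample, and without replicate 1 in every group the log2 fold changes were 2.09 and 2.97. The Col4a1 to Col4a2 ratio per length fell without overlap from 4.32 to 2.11 by group means.

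Markers of cell types that could be present were summed beside collagen IV. For the marker counts here and below, 7.51% of all genes were called higher and 10.2% lower in CH than in DMSO. After Esrrb deletion 12.8% of all genes were called higher and 3.87% lower. The summed level of 12 extraembryonic endoderm markers had the same order as Col4a1 over the wild-type groups, at 10.5 to 12.4 CPM with DMSO, 7.97 to 9.00 CPM with Fgf2/Activin, 3.80 to 4.70 CPM with CH and 2.33 to 2.69 CPM with 2i, and was 3.64 to 5.59 CPM before and 9.00 to 11.5 CPM after Esrrb deletion. Between 9 and 11 of the 12 had a count in a sample. Of the 9 tested between CH and DMSO, 4 were called lower in CH and 1 higher, with Dab2, the most abundant, at 5.61 ± 0.186 CPM with DMSO and 1.27 ± 0.378 CPM with CH. Of the 6 tested after Esrrb deletion, 2 were called higher and 1 lower, with Pdgfra at 0.625 ± 0.261 CPM before and 2.82 ± 0.567 CPM after. Other values went against the direction of Col4a1. Pdgfra was at 0.264 ± 0.0214 CPM with DMSO and 0.628 ± 0.256 CPM with CH, and Sox7 at 1.06 ± 0.328 CPM before and 0.112 ± 0.0727 CPM after deletion. Gata6 was at 0.260 ± 0.178 CPM before and 0.112 ± 0.110 CPM after deletion, and at most at 0.854 CPM in any sample, while Sox17 reached 0.694 CPM, Afp 2 counts and Ttr 0 counts.

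The 8 fibroblast markers did not follow the order of Col4a1 in the wild-type groups, with sums of 5.44 to 7.20 CPM with DMSO, 7.29 to 8.48 CPM with Fgf2/Activin, 2.72 to 9.71 CPM with CH and 2.69 to 3.66 CPM with 2i. After Esrrb deletion they summed to 5.31 to 7.25 CPM against 0.584 to 1.14 CPM before, and 3 of 3 tested were called higher, Col1a2 from 0.207 ± 0.136 to 2.74 ± 0.482 CPM, Dcn from 0.0516 ± 0.0517 to 1.28 ± 0.207 CPM and Pdgfrb from 0.225 ± 0.0291 to 1.06 ± 0.265 CPM. From 6 to 8 of the list had a count after deletion, and Col1a1 reached at most 0.633 CPM in any sample. The 8 trophoblast markers summed to 31.6 to 47.4 CPM with DMSO, 29.8 to 39.3 CPM with Fgf2/Activin, 9.88 to 11.4 CPM with CH and 9.67 to 15.0 CPM with 2i, and to 34.1 to 47.1 CPM before and 52.3 to 55.9 CPM after Esrrb deletion. Eomes, Ascl2 and Krt7 made up most of these sums, reaching 29.6, 27.6 and 20.7 CPM, and Prl3d1 and Tpbpa had 0 counts in every sample. After deletion 2 of the 4 tested were called higher, among them Krt7, at 0.312 ± 0.00591 CPM before and 6.28 ± 1.95 CPM after. The part of these cell types in the collagen IV result was not tested.

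Nid1 and Nid2 encode nidogens, which bridge laminin γ1 and collagen IV. Nid1 (chr13:13437551-13512269, + strand) was at 12.5, 8.36 and 6.87 CPM with DMSO, 57.6, 50.5 and 59.2 CPM with CH, 169, 163 and 163 CPM with 2i and 13.1, 8.08 and 8.45 CPM with Fgf2/Activin. DMSO and Fgf2/Activin overlapped, CH was above both, and 2i was above CH. It was called in 3 of the 4 wild-type comparisons. Nid1 was 6.03-fold higher in CH than in DMSO (2.58 ± 0.22, edgeR adjusted p = 6.35e-06), 2.96-fold higher in 2i than in CH (1.56 ± 0.21, edgeR adjusted p = 0.00137) and 16.7-fold higher in 2i than in Fgf2/Activin (4.06 ± 0.23, edgeR adjusted p = 2.15e-07). After Esrrb deletion it was at 33.1, 35.1 and 33.8 CPM against 67.8, 69.9 and 67.1 CPM, 2.01-fold lower (-1.01 ± 0.06, edgeR adjusted p = 4.37e-06). The spread there was small, but the value lay so near the fold threshold that 5 of 13 alternatives took it to between -0.997 and -0.982, the fit without replicate 1 in every group (-0.99) among them.

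Nid2 (chr14:19751265-19811787, + strand) was the most abundant of the 10 transcripts per length in the mean of all 6 groups, from 48.4 ± 11.4 RPKM (SD, n = 3) with DMSO to 120 ± 1.67 RPKM with 2i. In Esrrb Δ/Δ the lead was slight, at 74.7 ± 1.22 RPKM against 74.1 ± 0.767 RPKM for Lama5, and replicate 1 had the reverse order. Of the Nid2 exon bases, 8.45% overlap Rtraf on the other strand, and without strand the reads there cannot be told apart. It was at 299, 268 and 185 CPM with DMSO, 387, 458 and 477 CPM with CH, 614, 618 and 631 CPM with 2i and 543, 379 and 367 CPM with Fgf2/Activin. DMSO was below the other groups in every sample and 2i above them, while CH and Fgf2/Activin overlapped. The difference between CH and DMSO was 0.81 ± 0.18 (edgeR adjusted p = 0.00403), under the fold threshold, and 1.05 without replicate 1 in every group, where it was called. Between Esrrb Δ/Δ and Esrrb fl/fl it was 0.10 ± 0.04 (edgeR adjusted p = 0.0673). Nid1 stood at 0.0170 of Nid2 per length with Fgf2/Activin, 0.0274 with DMSO, 0.0952 with CH and 0.198 with 2i.

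Hspg2 encodes perlecan, a heparan sulfate proteoglycan of the membrane (chr4:137468769-137570630, + strand). It was at 213, 104 and 106 CPM with DMSO, 114, 55.2 and 56.8 CPM with CH, 97.5, 86.4 and 97.8 CPM with 2i and 154, 77.1 and 93.1 CPM with Fgf2/Activin. Replicate 1 was far above the others in 3 of these groups. The 2i samples lay below the DMSO samples, and every other pair of groups overlapped. The difference between CH and DMSO was -0.90 ± 0.36 (edgeR adjusted p = 0.0625), and with samples paired by replicate number it was also -0.90 (edgeR adjusted p = 0.000756), still under the fold threshold. After Esrrb deletion it was at 299, 223 and 256 CPM against 208, 142 and 137 CPM before (0.68 ± 0.16, edgeR adjusted p = 0.00666).

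Dag1 encodes dystroglycan, the laminin receptor whose sugar chains bind laminin and perlecan (chr9:108204634-108263958, - strand). Its levels were 284, 196 and 208 CPM with DMSO, 156, 161 and 164 CPM with CH, 184, 193 and 190 CPM with 2i, and 228, 177 and 172 CPM with Fgf2/Activin. Its group means lay within 160 and 229 CPM, the narrowest range of fold among the 10 genes in the wild-type groups, and none of the 4 wild-type comparisons called it. The largest wild-type difference, between CH and DMSO, was -0.52 ± 0.14 (edgeR adjusted p = 0.0105). After Esrrb deletion it was at 366, 338 and 343 CPM against 196, 232 and 234 CPM (0.66 ± 0.07, edgeR adjusted p = 9.71e-05), again without reaching the fold threshold.

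The other genes of the pathway were taken from 8 lists. Beside their counts stand the shares over all genes, 7.51% called higher and 10.2% lower in CH than in DMSO. After Esrrb deletion these shares were 12.8% higher and 3.87% lower. Among 16 genes for collagen assembly and cross-linking, 4 were called lower and 0 higher with CH against DMSO (2 more were higher by the adjusted p alone), and the median log2 fold change of the list was -0.15, where that of all tested genes was -0.0022. Pxdn, the peroxidasin that cross-links collagen IV, fell from 110 ± 10.7 CPM (SD, n = 3) with DMSO to 10.97 ± 3.48 CPM with CH (-3.33 ± 0.22). P4ha2, a collagen prolyl hydroxylase, fell from 18.6 ± 12.0 to 5.05 ± 1.74 CPM, and the lysyl oxidases Loxl1 and Loxl2 fell by 3.87 and 2.39 on the log2 scale. After Esrrb deletion 5 of the 16 were called higher and 0 lower, with a list median of 0.58 against 0.0021 over all genes. They included Pxdn (1.56 ± 0.20), P4ha2 (1.503 ± 0.16) and Serpinh1, the collagen chaperone, which rose from 171 ± 28.6 to 519 ± 34.7 CPM (1.60 ± 0.11). Serpinh1 did not share the order of Col4a1 in the wild-type groups, at 140 ± 20.8 CPM with DMSO and 233 ± 10.4 CPM with CH.

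Of 8 other receptors of laminin and collagen IV tested, Itga3 and Ddr1 were lower and Itga1 higher in CH than in DMSO. Itga3, the integrin α3 chain that binds laminin containing α5, fell from 40.1 ± 9.75 CPM with DMSO to 2.84 ± 1.05 CPM with CH (-3.81 ± 0.28) and rose from 5.01 ± 1.76 to 40.0 ± 0.718 CPM on Esrrb deletion (2.99 ± 0.20). Ddr1, a collagen-binding receptor kinase, fell from 125 ± 15.2 to 16.4 ± 3.26 CPM (-2.93 ± 0.22) and rose from 34.7 ± 6.31 to 101 ± 12.9 CPM (1.54 ± 0.14). Itga1, a collagen-binding integrin chain, was higher in CH (3.45 ± 0.76), from 1.34 ± 0.918 to 14.4 ± 8.43 CPM. Itga6, the laminin-binding α6 chain, was at 238 ± 38.5 CPM with DMSO and 133 ± 10.03 CPM with CH, which was not called, and fell from 128 ± 1.93 to 63.8 ± 6.00 CPM on Esrrb deletion, where its log2 fold change of -1.005 ± 0.07 was barely past the threshold. Without replicate 1 in every group Itga6 was not called on deletion. Itgb4, its partner in hemidesmosomes, rose on deletion (2.78 ± 0.34), and Itgb1, the common β chain, had a log2 fold change of 0.74 ± 0.06.

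**Figure D4:**
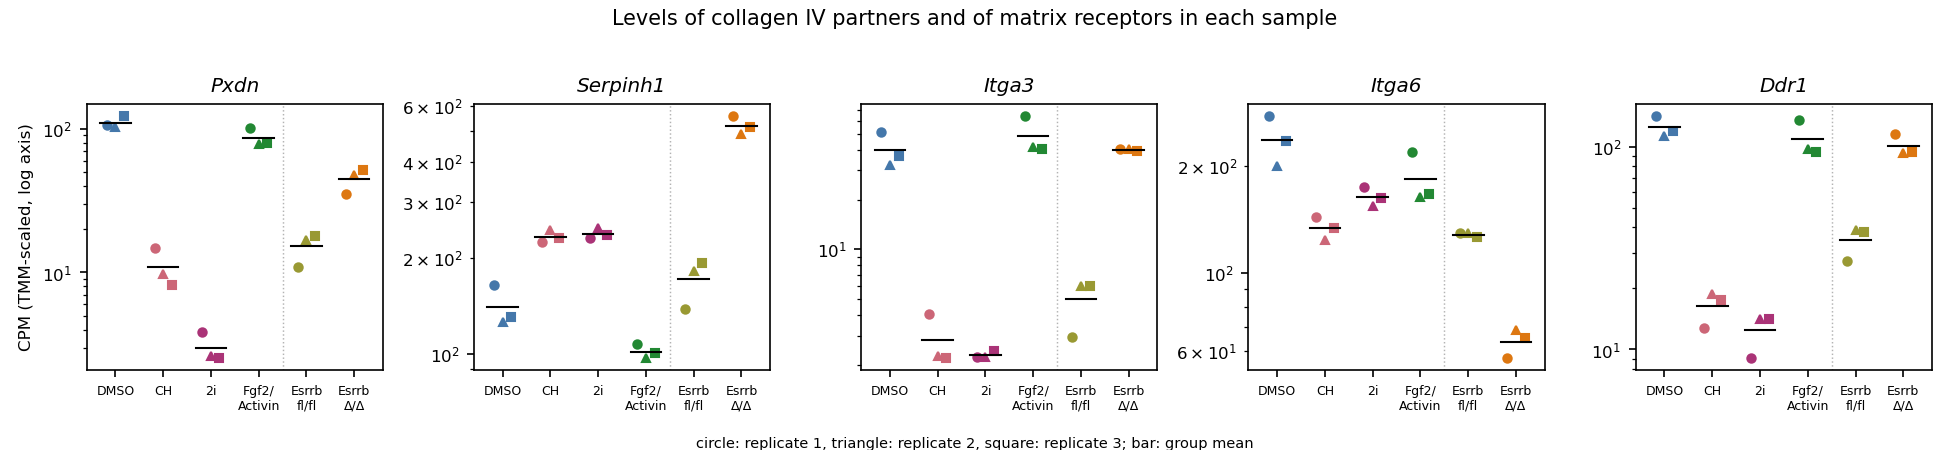
Levels in CPM, on log axes, of the collagen IV cross-linker Pxdn, the collagen chaperone Serpinh1, the laminin-binding integrin chains Itga3 and Itga6 and the collagen receptor Ddr1 in every sample, with symbols for replicates 1 to 3 and a bar at the group mean. Mean Itga3 was 40.1 CPM with DMSO and 2.84 CPM with CH. In the Esrrb samples, which were scaled apart, it was 5.01 CPM before and 40.0 CPM after deletion.

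Among the remaining laminin chains, 0 of the 5 tested were called between CH and DMSO by edgeR (2 of 5 at an unadjusted p under 0.05, and 0 by DESeq2). Over all genes, 8289 of 16413 had an unadjusted p under 0.05 in edgeR between CH and DMSO. After Esrrb deletion 3 of 5 were called higher, among them Lamb3 (2.84 ± 0.24) and Lamb2 (1.02 ± 0.10). Lamb3 encodes the β3 chain of the laminin that hemidesmosomes bind, and its α chain partner Lama3 was at 36.3 ± 5.12 CPM before and 24.7 ± 1.92 CPM after deletion. The other collagen IV chains were near the limit of detection, with 0 of 3 tested called between CH and DMSO by edgeR (1 at an unadjusted p under 0.05, and 0 called by DESeq2), Col4a6 lower in 2i than in CH (-2.46 ± 0.45, from a mean of 0.603 to 0.109 CPM) and Col4a5 higher after Esrrb deletion (1.89 ± 0.32, from 0.293 to 1.11 CPM by group means). A list of other basement membrane and associated matrix proteins had 14 genes tested between CH and DMSO. Of these, 5 were called higher, among them Fn1 (1.77 ± 0.17), Frem2 (2.01 ± 0.21) and Efemp1 (1.53 ± 0.20). The 2 called lower included Col18a1, the collagen XVIII gene, at 194 ± 23.1 CPM with CH against 655 ± 119 CPM with DMSO. Of 11 proteases and inhibitors 2 were called higher and 4 lower in CH than in DMSO, and of 9 tested 6 were called higher and 1 lower after Esrrb deletion. Of the 12 enzymes that build the laminin-binding sugars of dystroglycan, edgeR and DESeq2 each called 0 in any of the 5 comparisons. An unadjusted p under 0.05 in edgeR was found for 4 of them between CH and DMSO (8289 of all 16413 genes) and 2 between 2i and CH (3237). It was found for 1 between Fgf2/Activin and DMSO (2770) and 8 between 2i and Fgf2/Activin (9299). After Esrrb deletion it was found for 10, and for 9376 of all 14893 genes. Of the 9 tested members of the dystrophin complex, the called genes were Utrn between 2i and Fgf2/Activin (1.08 ± 0.10) and Sgce after Esrrb deletion (1.06 ± 0.12). Without replicate 1 in every group Sgce was not called.

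Genes whose log2 CPM over the 12 wild-type samples was most like that of a member were sought among genes averaging 100 counts or more. For Nid1 these were Ly75 (Pearson r 0.995), Pcsk6 (0.995) and Pecam1 (0.994), and for Lamc1 they were Zbtb44 (0.996), Ly75 (0.996) and Adgrg1 (0.995), so Ly75 was named for both. Nid1 and Lamc1 had an r of 0.989 with each other. For Lama1 they included Cdkn2a (0.992) and Dixdc1 (0.991). For Col4a1 they were Bag2 (0.993), Gramd3 (0.992) and Prdx6 (0.992), and for Col4a2 they were Smo (0.988), Stard10 (0.988) and Armcx2 (0.987). The closest gene to Lamb1 was Nab1 (0.985), to Dag1 Notch1 (0.985), to Nid2 Cep57 (0.975), to Hspg2 B3gnt5 (0.961) and to Lama5 Clca4a (0.947). These are descriptions over 12 points in 4 conditions, which share the difference of DMSO and Fgf2/Activin from CH and 2i.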

How the data were processed

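The authors sequenced poly(A) libraries, aligned reads with TopHat2 to mm10 (GRCm38) and counted reads per gene with HTSeq without using strand. The deposited table holds these raw counts for 18 samples, 3 in each of 6 groups, and has no normalised values. Samples were grouped by their labels. Of its 49671 identifiers, 49412 were matched to symbols in GENCODE M21 (GRCm38). The members, the 12 other lists and the tests were chosen with earlier results of these data known.

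Counts were scaled by TMM to CPM, and to RPKM by summed exon length. Differences were tested with edgeR 4.0.16 (R 4.3.3) quasi-likelihood fits after filterByExpr, with Benjamini-Hochberg adjustment over all genes, in 1 fit of the 12 wild-type samples and another of the 6 Esrrb samples, and called at an adjusted p under 0.01 with a log2 fold change above 1 in size. The log2 CPM behind the correlations used a prior count of 2, and fold changes are those of the edgeR fits at default settings. The scripts were tested on simulated data. Alternatives were DESeq2 1.42.0 (test and size factors), other filters, only the 6 samples compared, no minimum fold, total-count CPM, the longest transcript as length, each replicate left out, and, chosen after seeing the data, replicate 1 left out of every group. Named genes were all members, the 3 genes most like each, and, per other list and comparison, up to 4 called genes of largest change with a mean of at least 100 counts, or any gene of a list under 10 genes. A few genes that meet this rule are not reported here. Cell type markers were named after their values were seen.

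Deviations of same-numbered samples of different groups correlated in all 15 pairs, between 0.383 and 0.840. Replicate 2 against replicate 3 gave 0.323 to 0.735. The values therefore set replicate 1 apart but do not show that replicates 2 and 3 pair by number. Fits with the replicate number as a block assume that pairing and are given where they change a call. The labels do not say whether replicates are separate cultures, so p-values measure only the spread between these samples, which may be technical. Replicates of a group all differed above sampling noise (chi-square per gene from 1.42 to 59.7). Total counts from 19915222 to 37158661 limit the precision of genes near 1 CPM, such as Col4a2 with 2i (as few as 28 counts).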

Additional observations from a re-analysis of the deposited data

How the results depend on the processing

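Of the member log2 fold changes recomputed under the alternatives, 642 kept direction and side of the threshold, 21 lost a call, 14 gained one and 13 changed sign. None of those that changed sign was called. Between CH and DMSO, Lama5 (-0.02) became 0.011 with the replicate block, 0.24 without replicate 1 in every group and -0.23 to 0.33 with 1 replicate left out, above 0 without CH replicate 3 (0.07) or DMSO replicate 1. Lamb1 (0.13) ran from -0.16 without CH replicate 1 to 0.46, and was -0.01 without DMSO replicate 2. Between Fgf2/Activin and DMSO, Nid1 (0.09) ran from -0.17 without Fgf2/Activin replicate 1 to 0.37, and was -0.08 without DMSO replicate 3, and Hspg2 (-0.38) ran from -0.73 to 0.041 without DMSO replicate 1. Between 2i and Fgf2/Activin, Hspg2 (-0.20) ran from -0.40 to 0.15 and Dag1 (-0.03) from -0.10 to 0.12, above 0 without Fgf2/Activin replicate 1, and they were 0.12 and 0.14 without replicate 1 in every group. The cause was not tested.

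Members called between 2i and CH numbered 1 in the fit of 6 samples and 4 without replicate 1 in every group, and between Fgf2/Activin and DMSO 1 with the replicate block and 1 without replicate 1 in every group. With no minimum fold 8 were called in the Esrrb comparison. Apart from Lamb1 between 2i and CH and Lama1 between Fgf2/Activin and DMSO, the replicate block changed no other member call. Leaving out 1 replicate gave 4 to 5 members between CH and DMSO, 1 between 2i and CH, 0 between Fgf2/Activin and DMSO, 6 to 7 between 2i and Fgf2/Activin and 2 to 3 in the Esrrb comparison.

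All genes called between CH and DMSO numbered 1755 with at least 10 counts in every sample, where fewer genes were tested, and 4750 with no minimum fold (2350 to 2862 with 1 replicate left out). Between 2i and CH they numbered 597 by DESeq2, 672 with the replicate block, 100 in the fit of 6 samples and 768 without replicate 1 in every group (144 to 275 with 1 replicate left out). Between Fgf2/Activin and DMSO they numbered 374, 424, 87 and 499 in the same order (112 to 171). Between 2i and Fgf2/Activin they numbered 2332 with at least 10 counts and 6193 with no minimum fold (3347 to 3575), and in the Esrrb comparison 6621 with no minimum fold (2183 to 2460).

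With CPM on total counts, mean levels moved by more than 1 SD for Lama1 (25.4 in Esrrb fl/fl), Lama5 (875 in Esrrb Δ/Δ), Lamc1 (408 in Esrrb fl/fl and 296 in Esrrb Δ/Δ), Nid1 (161 with 2i, 65.7 in Esrrb fl/fl and 35.3 in Esrrb Δ/Δ) and Nid2 (607 with 2i, 347 in Esrrb fl/fl and 401 in Esrrb Δ/Δ). With the longest transcript as length, Lamb1 to Lamc1 became 1.06 with DMSO, 0.583 with CH, 0.190 with 2i, 1.08 with Fgf2/Activin, 0.335 in Esrrb fl/fl and 0.918 in Esrrb Δ/Δ, since the exons of Lamb1 sum to 9917 bases and its longest transcript to 5784. Col4a1 to Col4a2 became 2.31 in Esrrb Δ/Δ, and Nid1 to Nid2 became 0.213 with 2i, 0.0183 with Fgf2/Activin, 0.151 in Esrrb fl/fl and 0.0704 in Esrrb Δ/Δ.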

Other observations

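Proteases and inhibitors that act on basement membranes also differed between groups. Timp3, a matrix-bound metalloproteinase inhibitor, fell from 7.36 ± 0.928 CPM (SD, n = 3) with DMSO to 1.502 ± 0.139 CPM with CH, while Timp1, a secreted inhibitor, rose from 8.57 ± 1.36 to 19.5 ± 2.85 CPM. On Esrrb deletion Timp1 was at 29.3 ± 4.03 CPM before and 27.2 ± 4.77 CPM after, and was not called. The membrane-anchored metalloproteinases Mmp14 and Mmp15 and the gelatinase Mmp2 rose on deletion, from 12.7 ± 2.26 to 30.1 ± 10.6 CPM, from 3.93 ± 0.641 to 12.6 ± 2.07 CPM and from 5.26 ± 0.803 to 12.6 ± 2.95 CPM. Adamts9, a secreted protease, had the opposite direction on deletion, falling from 10.9 ± 2.99 to 2.58 ± 1.00 CPM, and was higher with CH (9.50 ± 1.16 CPM) than with DMSO (4.30 ± 1.63 CPM).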
